A study of Mus musculus with 12 samples.

Results

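The 10 genes described here, Pou2f3, Gfi1b, Gnat3, Gng13, Plcb2, Trpm5, Rgs13, Avil, Dclk1 and Sh2d6, are genes that define tuft cells or serve their chemosensing. They were taken by name from a table of 35241 genes measured in the full-thickness distal colon of 12 mice. Of these mice, 6 were Spry2IEKO (Vil1::Cre;Spry2-f/f) and 6 were Spry2FF (Spry2-f/f), their littermates without Cre. Both groups carry the floxed Spry2 alleles, and Cre under the villin promoter removes Spry2, the gene of the signaling regulator Sprouty2, from the intestinal epithelium alone. Each of litters A and B gave 3 Spry2IEKO and 3 Spry2FF mice. The Spry2IEKO mice were 5 females and 1 male (replicate 8, litter B), and the Spry2FF mice were 3 females and 3 males (replicates 2 and 3 of litter A and replicate 9 of litter B). The labels give the age as 6 weeks in one place and 8 weeks in another. Each replicate is 1 mouse.

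Tuft cells are rare cells of the gut epithelium that sense the contents of the lumen with a tuft of microvilli. They use the signaling cascade of taste cells, in which a receptor frees a G protein (Gnat3 encodes its alpha subunit gustducin and Gng13 a gamma subunit), phospholipase C beta (Plcb2) then raises calcium, and calcium opens the cation channel Trpm5. The transcription factor Pou2f3 is required for tuft cells to form. In the gut they are known as a source of interleukin-25, which acts on type 2 innate lymphoid cells, and interleukin-13 from these cells in turn increases tuft and goblet cells.

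The values are TPM, a measure of transcript abundance corrected for transcript length, that the authors scaled once more between mice, summed over the transcripts of a gene and called normalized TPM here. Levels of different genes can therefore be compared. The values are not counts of reads, and the study's methods give only 1 approximate depth for all samples. The depth of each mouse is therefore unknown here and no counting interval is given. A value of 0 means only that the gene is listed at 0. Spry2, whose transcripts outside the epithelium stay intact, ran from 18.5 to 22.5 in Spry2IEKO and from 22.8 to 32.3 in Spry2FF mice, without overlap, in the direction of the labels. In such bulk tissue, fewer cells of a type cannot be told apart from less RNA per cell.

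All 10 genes were low, with means over the 12 mice from 6.21 normalized TPM for Sh2d6 to 0.270 for Gfi1b. Between them lay Dclk1 at 4.96, Rgs13 at 3.27, Avil at 2.96, Trpm5 at 2.36, Plcb2 at 1.58, Gnat3 at 1.51, Pou2f3 at 0.711 and Gng13 at 0.706. Neighbours in this order were compared within mice (two-sided exact sign-flip permutation test over 12 mice, Benjamini-Hochberg adjustment over 9 pairs of neighbours). In this exact test Dclk1 was above Rgs13 (adjusted p = 0.0132), Avil above Trpm5 (adjusted p = 0.0498) and Gnat3 above Pou2f3 (adjusted p = 0.0132), each in 10 of 12 mice. The other 6 pairs of neighbours were not separated beyond their spread between mice (adjusted exact p from 0.0659 to 0.983), among them Sh2d6 and Dclk1 at the top.

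The difference between genotypes was tested with limma on log2(normalized TPM + 0.5) over 15880 genes whose mean reached 0.5, with Benjamini-Hochberg adjustment over all of them. Of the 10 genes, 9 passed this filter, and Gfi1b did not. None of the 9 passed an adjusted p of 0.05, which 5 of all genes tested (0.0315%) did. At an unadjusted p under 0.05, 4 of the 9 were higher in Spry2IEKO mice (Sh2d6, Rgs13, Trpm5 and Gnat3) and 0 were lower, against 3.0% of all genes tested on the higher and 3.17% on the lower side. Among genes with a mean under 10, where all 10 lie, 3.17% were on the higher side. The mean log2 value was higher in Spry2IEKO mice for 8 of the 9, all but Gng13, against 52.1% of all genes. The median log2 difference of the 9 was 0.56, and that of all genes tested was 0.0076. In the exact permutation test of single genes on the linear scale (two-sided, all splits of the mice into 6 and 6, smallest possible p = 0.00216), the same 4 genes had a p under 0.05, which 2.93% of all genes tested reached on the higher side. Of the 10, 1 gene, Sh2d6, had no overlap between the genotypes, a pattern that 0.189% of the genes tested showed with Spry2IEKO mice above. With litter as a covariate in limma, 5 of the 9 (Avil, Gnat3, Rgs13, Sh2d6 and Trpm5) had an unadjusted p under 0.05. None of the 9 passed the adjusted threshold in that fit, which 6 of all genes did.

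**Figure D1:**
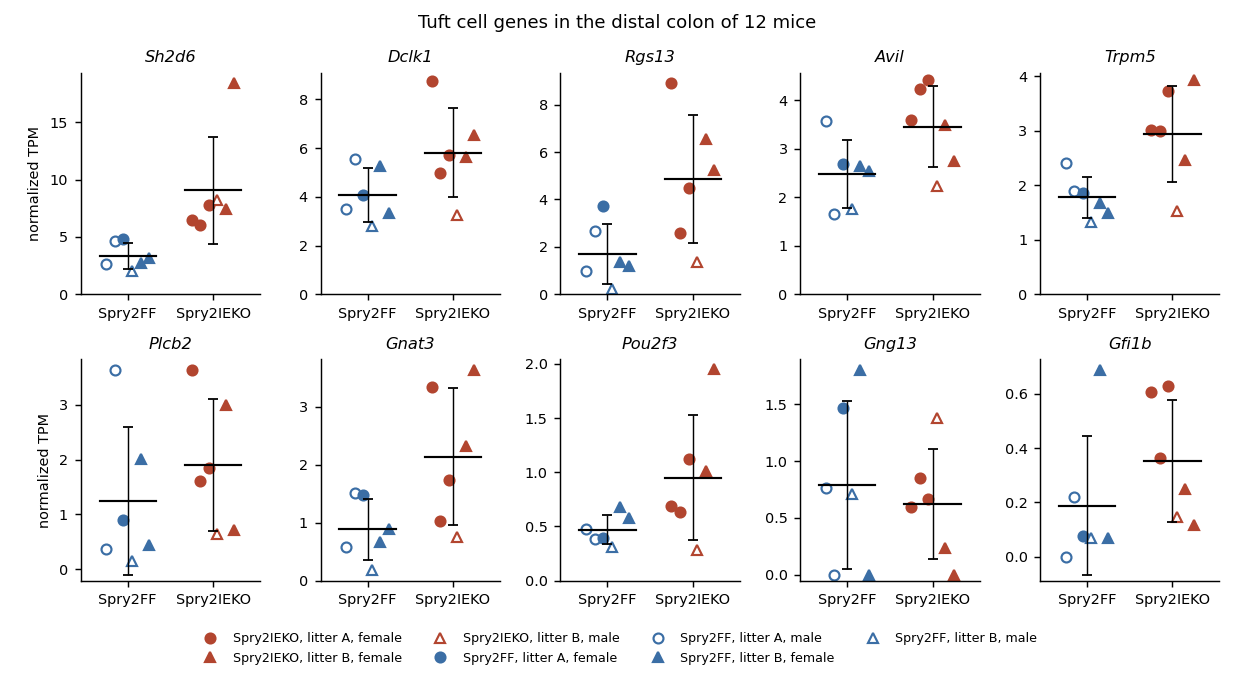
Normalized TPM (y axis, linear) of each tuft cell gene in every mouse by genotype (x axis), ordered by mean level; circles are litter A, triangles litter B, open symbols males, horizontal lines the mean and bars the SD (n = 6). Sh2d6 is the gene whose genotypes do not overlap, and the Spry2IEKO male (open red triangle) lies at or near the bottom of its group in most panels but not for Sh2d6 or Gng13.

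Sh2d6 (ENSMUSG00000052631, chromosome 6, 72513641 to 72521707 of GRCm38, minus strand) encodes an adaptor protein with an SH2 domain. In Spry2IEKO mice its lowest value was 6.01, its median 7.61 and its highest 18.4 normalized TPM, and in Spry2FF mice these were 2.03, 2.97 and 4.87. Every Spry2IEKO mouse was above every Spry2FF mouse, and replicate 12 stood far above the other 5 of its genotype, which reached 8.26. The means of 9.07 ± 4.67 (SD, n = 6) and 3.36 ± 1.16 (SD, n = 6) gave a log2 difference of 1.26 (standard error 0.263, unadjusted p = 0.000348, adjusted p = 0.24 by limma) and rank 23 among all genes by p. The exact permutation p was 0.00216, the smallest that 6 mice against 6 allow. Without replicate 12 the log2 difference was 1.04. Unlike most of the 10 genes, Sh2d6 was not low in the Spry2IEKO male, at 8.26.

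Its signal was spread over 5 of the 6 transcripts listed. The highest, ENSMUST00000160761, which the annotation (GENCODE M21) marks for nonsense-mediated decay, took 35.3% of the gene's signal, and the protein-coding transcript ENSMUST00000089687 took 32.8%. Both had higher means in Spry2IEKO mice, 3.05 ± 1.58 (SD, n = 6) against 1.34 ± 0.584 (SD, n = 6) for the former and 2.85 ± 2.57 (SD, n = 6) against 1.22 ± 1.15 (SD, n = 6) for the latter. Such transcript values are estimates of the pseudoaligner, and no test was run on them.

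Rgs13 and the cascade genes Trpm5 and Gnat3 followed. Rgs13 (ENSMUSG00000051079, chromosome 1, 144138654 to 144177372, minus strand) encodes a regulator that ends G protein signaling, and is also known from germinal centre B cells and mast cells. Its lowest, median and highest values were 1.38, 4.85 and 8.89 normalized TPM in Spry2IEKO mice and 0.240, 1.27 and 3.74 in Spry2FF mice. The genotypes overlapped, with 4 of the 6 Spry2IEKO mice above all Spry2FF mice and 4 of the 6 Spry2FF mice below all Spry2IEKO mice. The log2 difference of 1.31 (standard error 0.446) was as large as that of Sh2d6 but with a wider spread (unadjusted p = 0.0114, adjusted p = 0.693 by limma, exact permutation p = 0.026).

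Trpm5 (ENSMUSG00000009246, chromosome 7, 143069153 to 143094642, minus strand), the cation channel at the end of the cascade, had 1.53, 3.0 and 3.92 normalized TPM as its lowest, median and highest values in Spry2IEKO mice and 1.33, 1.77 and 2.41 in Spry2FF mice. All Spry2IEKO mice but the male, that is 5 of 6, were above every Spry2FF mouse. The means of 2.94 ± 0.875 (SD, n = 6) and 1.78 ± 0.378 (SD, n = 6) differed by 0.56 on the log2 scale (standard error 0.197, unadjusted p = 0.0133, adjusted p = 0.693 by limma, exact permutation p = 0.0173). Among females alone Trpm5 was 3.22 ± 0.598 (SD, n = 5) against 1.68 ± 0.187 (SD, n = 3), with an exact permutation p of 0.0179, the smallest that 5 mice against 3 allow.

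Gnat3 (ENSMUSG00000028777, chromosome 5, 17962549 to 18019834, plus strand), which encodes gustducin, was 0.752, 2.03 and 3.65 normalized TPM at its lowest, median and highest in Spry2IEKO mice and 0.180, 0.784 and 1.51 in Spry2FF mice. Again 4 of the 6 Spry2IEKO mice were above all Spry2FF mice. The log2 difference was 0.89 (standard error 0.348, unadjusted p = 0.0237, adjusted p = 0.753 by limma, exact permutation p = 0.039). With permutation within litters its exact p was 0.055, so that the 4 genes under 0.05 in that test were Sh2d6, Trpm5, Rgs13 and Avil.

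The remaining cascade genes, Plcb2 and Gng13, had no p under 0.05 for genotype by limma or by exact permutation over all mice. Plcb2 (ENSMUSG00000040061, chromosome 2, 118707517 to 118728438, minus strand), a phospholipase that blood cells also use, ran from 0.640 over a median of 1.73 to 3.63 normalized TPM in Spry2IEKO mice and from 0.145 over 0.665 to 3.64 in Spry2FF mice. Its highest value of all was in Spry2FF replicate 3, and its spread within each genotype was wider than the difference between them (log2 difference 0.62, standard error 0.47, adjusted p = 0.874 by limma, exact permutation p = 0.387). That log2 difference was no smaller than the 0.56 of Trpm5. It was 0.93 without Spry2FF replicate 3 (unadjusted p = 0.0459, adjusted p = 0.879 by limma) and 0.39 without Spry2FF replicate 9. Gng13 (ENSMUSG00000025739, chromosome 17, 25717171 to 25719406, plus strand) was listed at 0 in 3 mice, Spry2IEKO replicate 12 and Spry2FF replicates 3 and 13. It reached 1.38 in the Spry2IEKO male and 1.81 in Spry2FF replicate 10, with medians of 0.631 in Spry2IEKO and 0.734 in Spry2FF mice. Its log2 difference of -0.09 (standard error 0.439, adjusted p = 0.985 by limma, exact permutation p = 0.652) changed sign with the processing.

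Dclk1 and Avil lay between these groups. Dclk1 (ENSMUSG00000027797, chromosome 3, 55242364 to 55539068, plus strand) encodes a kinase bound to microtubules and is the most used marker of tuft cells. It was 3.26, 5.68 and 8.78 normalized TPM at its lowest, median and highest in Spry2IEKO mice and 2.81, 3.78 and 5.55 in Spry2FF mice. In Spry2IEKO mice 4 of 6 were above all Spry2FF mice, and the male was below the Spry2FF median (log2 difference 0.44, standard error 0.212, unadjusted p = 0.0565, adjusted p = 0.826 by limma, exact permutation p = 0.0758). Avil (ENSMUSG00000025432, chromosome 10, 127000709 to 127020994, plus strand), which encodes the actin-binding protein advillin, was 2.24, 3.54 and 4.41 against 1.66, 2.59 and 3.58. Its log2 difference was 0.41 (standard error 0.193, unadjusted p = 0.052, adjusted p = 0.817 by limma). The exact permutation p was 0.0606 over all mice and 0.035 with permutation within litters, whose smallest possible value is 0.005.

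The 2 transcription factors were, with Gng13, the 3 lowest of the genes. Pou2f3 (ENSMUSG00000032015, chromosome 9, 43123939 to 43210369, minus strand) was 0.283, 0.851 and 1.96 normalized TPM at its lowest, median and highest in Spry2IEKO mice and 0.315, 0.437 and 0.678 in Spry2FF mice. Of the Spry2IEKO mice 4 were above all Spry2FF mice, but the male was below them all (log2 difference 0.50, standard error 0.253, unadjusted p = 0.0707, adjusted p = 0.826 by limma, exact permutation p = 0.0563). With each mouse left out, the difference ran from 0.33 (without Spry2IEKO replicate 12) to 0.66 (without the Spry2IEKO male). With sex in the model it was 0.33. Gfi1b (ENSMUSG00000026815, chromosome 2, 28609450 to 28621982, minus strand), a repressor also known from megakaryocytes and red cell precursors, stayed under the filter. It ran from 0.118 to 0.628 in Spry2IEKO mice and from 0 to 0.688 in Spry2FF mice, where its median was 0.0742 and replicate 10 held the highest value. In a fit without the filter its log2 difference was 0.33 (standard error 0.225, unadjusted p = 0.163, adjusted p = 0.866 by limma). With the pseudocount of 0.5, the differences of genes at this level are understated.

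**Figure D2:**
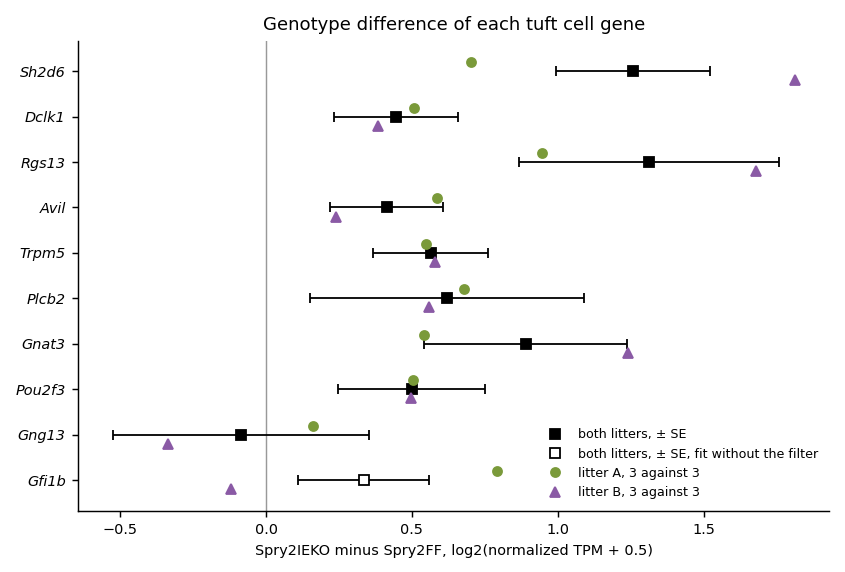
Difference between genotypes of each tuft cell gene (x axis, Spry2IEKO minus Spry2FF, in log2(normalized TPM + 0.5)); squares are both litters with the standard error of limma, circles litter A and triangles litter B with 3 mice of each genotype. Sh2d6 and Rgs13 lie furthest right at 1.26 and 1.31, Gng13 is left of 0, and the litters lie furthest apart for Sh2d6 (0.70 and 1.81).

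The mice differed from each other across most of the 10 genes at once. Spry2FF replicate 9, a male of litter B, was the lowest of all 12 mice for 6 of the genes and among the lowest 3 for 9. Spry2IEKO replicate 4 was among the highest 3 for 7, replicate 6 for 6 and replicate 12 for 6. The only male of that genotype, replicate 8, was the lowest Spry2IEKO mouse for 7 of the 10. This mouse also had the highest sum of the 6 smooth muscle genes, 7887 normalized TPM, against 3226 to 5145 in the other Spry2IEKO and 4167 to 6923 in the Spry2FF mice. Over the 12 mice r with that sum was -0.72 for Pou2f3, -0.69 for Gnat3, -0.65 for Dclk1 and -0.60 for Rgs13, and none of these passed the adjusted permutation test (adjusted p from 0.0559 to 0.15). The part of smooth muscle in the results was not tested. Spry2IEKO replicates 4 and 5 stood apart in the sum of the 6 fat genes, at 568 and 1109, against 23.1 to 120 in the other 10 mice. The genotypes held unequal numbers of males, so sex was entered as an alternative. With sex in the model, 3 of the 9 genes (Rgs13, Sh2d6 and Trpm5) had an unadjusted p under 0.05, against 2.12% of all genes on the higher side, and in females alone these and Gnat3 and Dclk1 did, against 2.30%. Without Spry2IEKO replicate 8, 7 of the 9 did, all but Gng13 and Plcb2, against 4.57%.

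The litters did not separate the genes. In a model with genotype and litter, 0 of the 9 passed an adjusted p of 0.05 for litter, which 4.38% of all genes did, and 0 had an unadjusted p under 0.05, which 14.8% had toward litter A and 7.08% toward litter B. The mean was higher in litter A for 7 of the 9, against 58.8% of all genes tested. The lowest adjusted p was that of Trpm5, 0.291, with 2.65 ± 0.728 (SD, n = 6) normalized TPM in litter A and 2.07 ± 0.991 (SD, n = 6) in litter B.

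The difference between genotypes was of the same sign in both litters for 8 of the 10 genes, all but Gng13 and Gfi1b. For Pou2f3, the log2 difference was 0.50 in both litters, and for Trpm5 0.55 among the mice of litter A and 0.58 among those of litter B. The litters gave 0.54 and 1.24 for Gnat3, and 0.95 and 1.68 for Rgs13. Within litter A, 5 of the 10 genes had no overlap between the genotypes (Pou2f3, Gfi1b, Trpm5, Avil and Sh2d6), against 5.83% of all genes tested with Spry2IEKO mice above, and within litter B 2 did (Rgs13 and Sh2d6), against 4.79%. In a test of the difference between litters, 0 of the 9 passed an adjusted p of 0.05 (0.0126% of all genes did), and 1 had an unadjusted p under 0.05, against 2.10% of all genes with a larger difference in litter B. This was Sh2d6, whose difference was 0.70 for litter A and 1.81 for litter B (interaction 1.11, standard error 0.459, unadjusted p = 0.034, adjusted p = 0.998 by limma). Without Spry2IEKO replicate 12, 0 of the 9 had such a p.

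Which of the genes follow each other was measured by Pearson's r of log2(normalized TPM + 0.5) over the 12 mice for the 36 pairs of the 9 genes past the filter (100000 permutations, two-sided, Benjamini-Hochberg adjustment over the 36 pairs). Of these, 29 were positive, the median r was 0.59, and 15 passed an adjusted p of 0.05, as did 15 by Spearman's rho. The median r of the 9 genes with all genes tested was 0.035. Gng13 stood aside, with a median r of -0.24 with the other 8. Without it all 28 pairs were positive, with a median of 0.69.

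**Figure D3:**
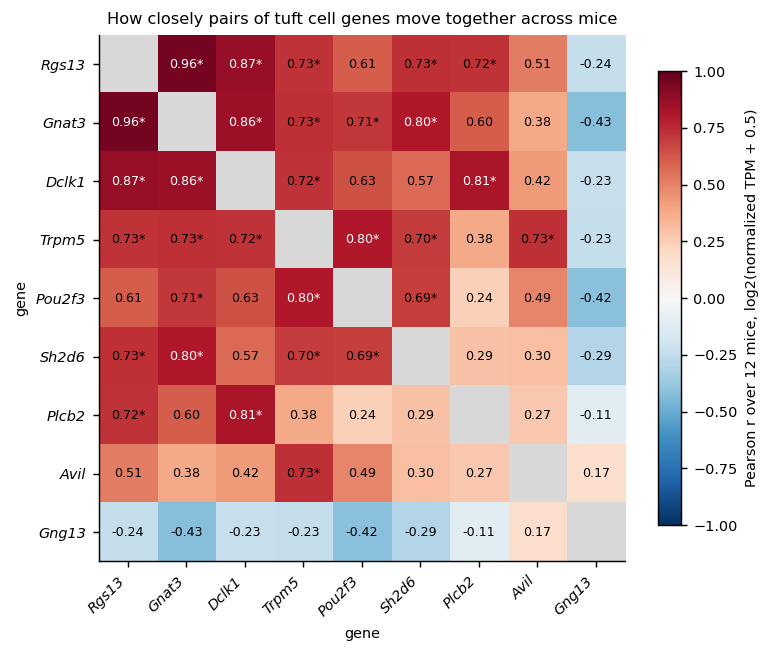
Pearson's r between tuft cell genes over 12 mice (colour and printed value, log2(normalized TPM + 0.5)); both axes list the same 9 genes and a star marks an adjusted p under 0.05. Rgs13, Gnat3 and Dclk1 form the darkest block, with r from 0.86 to 0.96, and the row of Gng13 is below 0 except with Avil.

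The closest pair was Gnat3 and Rgs13, the G protein subunit and the regulator of G protein signaling. Their r was 0.96 and their rho 0.95 (adjusted permutation p = 0.00036 for both, the smallest that the permutations allow), and r was 0.97 without the 2 mice farthest from the median. Within litter A it was 0.98, within litter B 0.96, and once the genotype means were taken out 0.93. Rgs13 with Dclk1 (r = 0.87, rho = 0.87, adjusted permutation p = 0.00576 and 0.00594) and Gnat3 with Dclk1 (r = 0.86, rho = 0.87, adjusted permutation p = 0.00576 and 0.00594) came next. Without the 2 farthest mice these were 0.75 and 0.81, and with genotype means removed 0.81 and 0.79.

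Plcb2 followed Dclk1 (r = 0.81, rho = 0.75, adjusted permutation p = 0.0109 and 0.021) and Rgs13 (r = 0.72, rho = 0.71, adjusted permutation p = 0.0271 and 0.0365), but r was 0.24 with Pou2f3 and 0.29 with Sh2d6. By r over all mice, Pou2f3 was closest to Trpm5 (r = 0.80, rho = 0.79, adjusted permutation p = 0.0099 and 0.0196), and by rho to Dclk1 (rho = 0.82, adjusted permutation p = 0.0125). Without Spry2IEKO replicates 12 and 6, the 2 farthest from the median, r was 0.59 with Trpm5, 0.63 with Dclk1 and 0.68 with Avil. Pou2f3 with Sh2d6 rested on those mice, since r fell from 0.69 to 0.25 without them and rho did not pass (adjusted permutation p = 0.196). Within Spry2IEKO mice alone, r of Pou2f3 was 0.83 with Trpm5, 0.75 with Gnat3 and 0.59 with Rgs13. Within Spry2FF mice alone these were 0.08, 0.10 and 0.09. With Avil, Plcb2 and Gng13 its r was higher within Spry2FF mice. The difference between genotypes in r was not tested. By r, Avil passed with Trpm5 alone (r = 0.73, rho = 0.77, adjusted permutation p = 0.0271 and 0.021), and by rho with Pou2f3 as well (rho = 0.69, adjusted permutation p = 0.0379).

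With genotype means taken out, the median r of the 36 pairs was 0.31 and 4 passed. Spry2FF replicate 9, low for nearly all the genes, also bore on the count, which was 4 without it. Within a litter of 6 mice the median r was 0.43 (litter A) and 0.70 (litter B), and 0 pairs passed the adjusted exact permutation test in either. With 6 mice the smallest possible exact p is too large for a single pair to pass after adjustment over 36 pairs. Nothing is therefore concluded from these counts.

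Since Rgs13, Gnat3 and Dclk1 move together, the DNA before their annotated starts is shown for each, and that of Avil for a match in it. The sequences are the 250 bases before the start in RefSeq (GRCm38.p6), 5′ to 3′ on the strand of the gene, and capitals mark the 7 bases searched for.
Rgs13, chr1:144177373-144177622, minus strand: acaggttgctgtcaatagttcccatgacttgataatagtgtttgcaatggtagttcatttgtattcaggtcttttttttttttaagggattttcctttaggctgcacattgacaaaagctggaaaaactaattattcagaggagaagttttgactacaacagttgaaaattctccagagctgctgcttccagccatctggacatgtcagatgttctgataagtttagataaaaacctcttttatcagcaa
Gnat3, chr5:17962320-17962569, plus strand: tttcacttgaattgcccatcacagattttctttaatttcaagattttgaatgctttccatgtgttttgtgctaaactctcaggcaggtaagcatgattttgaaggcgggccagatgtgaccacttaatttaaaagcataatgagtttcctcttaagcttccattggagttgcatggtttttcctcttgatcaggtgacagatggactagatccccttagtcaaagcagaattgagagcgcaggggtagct
Avil, chr10:127000459-127000708, plus strand: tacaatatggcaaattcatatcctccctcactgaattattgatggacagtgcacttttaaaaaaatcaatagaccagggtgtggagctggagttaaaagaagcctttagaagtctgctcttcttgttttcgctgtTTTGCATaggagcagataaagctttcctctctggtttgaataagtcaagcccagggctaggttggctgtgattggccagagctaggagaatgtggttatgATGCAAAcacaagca
Dclk1, distal start, chr3:55242114-55242363, plus strand: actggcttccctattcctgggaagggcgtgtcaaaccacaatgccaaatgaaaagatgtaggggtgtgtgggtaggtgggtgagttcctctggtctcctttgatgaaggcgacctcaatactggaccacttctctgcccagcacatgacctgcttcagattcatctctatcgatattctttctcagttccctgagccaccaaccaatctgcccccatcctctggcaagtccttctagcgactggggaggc
Dclk1, proximal start, chr3:55461478-55461727, plus strand: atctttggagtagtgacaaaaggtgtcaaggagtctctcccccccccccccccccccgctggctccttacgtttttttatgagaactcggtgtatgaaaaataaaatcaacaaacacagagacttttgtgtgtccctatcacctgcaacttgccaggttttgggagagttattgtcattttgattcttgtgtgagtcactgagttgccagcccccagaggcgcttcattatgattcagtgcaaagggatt

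POU proteins such as Pou2f3 are known to bind the octamer ATTTGCAT. RefSeq windows were given for 9 of the 10 genes, 11 windows in all, with 2 each for Dclk1 and Gng13. On either strand, 0 of the 11 held the whole octamer, which 526 of all 32851 windows (1.60%) held. Its 7 bases ATGCAAA, which every match of the octamer contains, were in 1 of the 11 and in 4.12% of all windows. The window of Avil held them 2 times, from 15 bases before the start as ATGCAAA and from 115 bases before it in the reverse orientation as TTTGCAT. These are matches of letters, not sites of binding, and their absence elsewhere says nothing beyond these windows.

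The 2 starts of Dclk1 lie 219364 bases apart. Transcripts from the proximal start (7 of the 15 listed, first base within 1000 bases) took 64.1% of the signal of the gene, and those from the distal start (3 transcripts) took 28.2%. The proximal transcripts summed to 3.69 ± 1.22 (SD, n = 6) normalized TPM in Spry2IEKO and 2.66 ± 0.47 (SD, n = 6) in Spry2FF mice, with an exact permutation p of 0.0909. The distal ones summed to 1.86 ± 0.957 (SD, n = 6) and 0.934 ± 0.695 (SD, n = 6) (exact permutation p = 0.0887). Neither difference was separated from the spread between mice.

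Genes on the opposite strand overlap Gng13 (Chtf18), Trpm5 (Tssc4), Avil (Tsfm) and Dclk1 (among them Gm21954). The labels name a stranded kit, but whether strand was used in the pseudoalignment is not given in the sources used here, so reads of these partners cannot be told apart from those of the 4 genes where their exons overlap.

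Across all 15871 other genes tested, those most like the 10 were found by r with the mean z score of the 10 over the 12 mice. The 10 highest were Cmtm8 (0.97), Zg16 (0.96), Hs3st3b1, Reg4, Spink1, Scin, Agr2, Tff3, Tspan13 and Alb (0.93). Since they are the highest of so many, no p is given. Zg16, Agr2 and Tff3 were on the list of 8 goblet cell genes (Zg16 encodes a lectin of mucus granules, Agr2 a folding enzyme for mucin and Tff3 a trefoil peptide of mucus). With genotype means removed, r stayed between 0.87 and 0.96 for these 10 genes. Zg16 was 5379 ± 1246 (SD, n = 6) normalized TPM in Spry2IEKO and 3230 ± 703 (SD, n = 6) in Spry2FF mice (log2 difference 0.73, standard error 0.184, unadjusted p = 0.00163, adjusted p = 0.446 by limma).

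Summed levels of marker genes of other cells were set against each of the 10 genes in the same way (140 pairs of a gene and a list, adjusted over all 140), and 18 passed by r. The 8 goblet cell genes, which summed to 9611 to 18563 normalized TPM in Spry2IEKO and 8020 to 12157 in Spry2FF mice, followed Rgs13 (r = 0.92, rho = 0.91, adjusted permutation p = 0.0028 and 0.0042), Dclk1 (r = 0.92, rho = 0.92, adjusted permutation p = 0.0028 and 0.0042) and Gnat3 (r = 0.90, rho = 0.91, adjusted permutation p = 0.0028 and 0.0042). Without the 2 mice farthest from the median of the goblet sum, r was 0.87, 0.89 and 0.84, and within litters it was 0.82 or more for these 3 genes. Trpm5 followed too (r = 0.86, rho = 0.87, adjusted permutation p = 0.0144 and 0.0098). At an unadjusted p under 0.05, 7 of the 8 goblet genes were higher in Spry2IEKO mice, against 3.0% of all genes tested. The median log2 difference of the 8 was 0.52. Zg16, Agr2 and Tff3, which were among the 7, had an adjusted p of 0.446, 0.656 and 0.753 by limma.

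**Figure D4:**
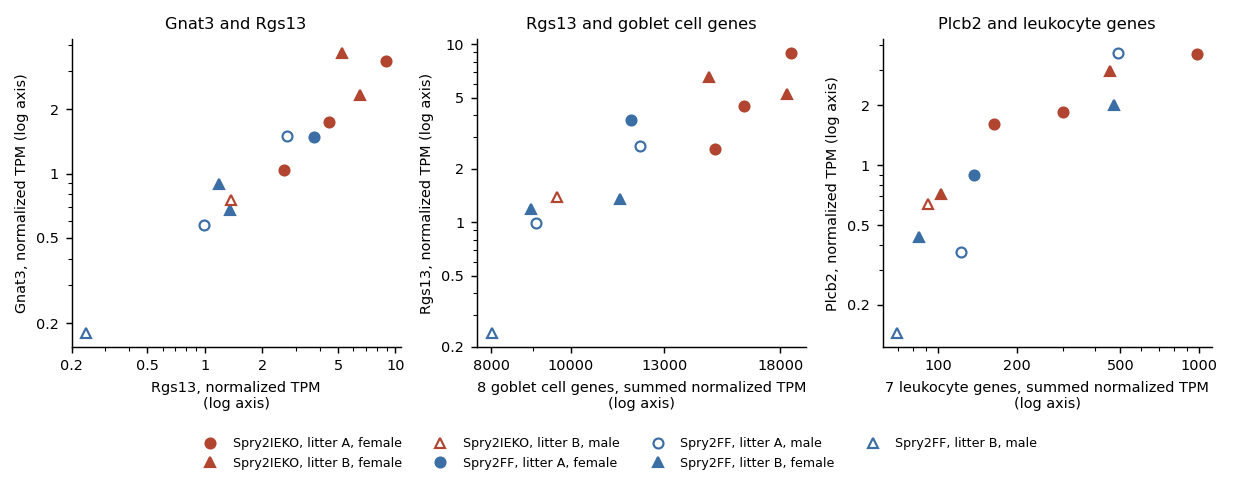
Gnat3 against Rgs13, Rgs13 against the sum of 8 goblet cell genes, and Plcb2 against the sum of 7 leukocyte genes, in normalized TPM on log axes; each point is 1 mouse, with symbols as in the plot of values by mouse. In all 3 panels Spry2FF replicate 9 is at the lower left, and in the third the genotypes overlap over most of the range.

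Plcb2 followed the leukocyte genes, and its cellular source was not tested. The 7 leukocyte genes, led by Ptprc (CD45), summed to 91.8 to 980 normalized TPM in Spry2IEKO and 69.9 to 487 in Spry2FF mice, with 0 of the 7 changed at an unadjusted p under 0.05 and none at 0. Plcb2 had r = 0.96 and rho = 0.95 with this sum (adjusted permutation p = 0.0014 for both), 0.96 without the 2 farthest mice, 0.93 among litter A and 0.97 among litter B. With the goblet sum its r was 0.67 (rho = 0.69), which did not pass (adjusted permutation p = 0.107 and 0.0978), and the difference between these correlations was not tested. With the 6 B cell genes, which ranged from 4.58 to 319 in Spry2IEKO and from 1.44 to 131 in Spry2FF mice, r was 0.89 (rho = 0.89, adjusted permutation p = 0.00644 and 0.00583). With the B cell genes as a covariate, an alternative chosen after seeing the data, the genotype difference of Plcb2 went from 0.62 to 0.18, that of Dclk1 from 0.44 to 0.28, that of Gnat3 from 0.89 to 0.71 and that of Rgs13 from 1.31 to 1.03, while Trpm5 was at 0.55 and Sh2d6 at 1.26. In that fit 3 of the 9 genes (Rgs13, Sh2d6 and Trpm5, no longer Gnat3) had an unadjusted p under 0.05, against 2.47% of all genes on the higher side.

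Dclk1 also followed the leukocyte sum (r = 0.82, rho = 0.75, adjusted permutation p = 0.0234 and 0.0618, 0.70 without the 2 farthest mice), and so did Gfi1b (r = 0.78, rho = 0.72, adjusted permutation p = 0.0342 and 0.0784, 0.82 without them). By rho neither passed. The B cell sum gave r = 0.77 for Dclk1 and 0.76 for Gfi1b (adjusted permutation p = 0.0361 and 0.0412). By rho these pairs did not pass either (adjusted permutation p = 0.0893 and 0.0886). Rgs13 followed the 11 mast cell genes (r = 0.87, rho = 0.90, adjusted permutation p = 0.00677 and 0.0042, 0.90 without the 2 farthest mice). So did Sh2d6 (r = 0.80, rho = 0.84, adjusted permutation p = 0.0251 and 0.0205), Gnat3 (r = 0.80, rho = 0.82, adjusted permutation p = 0.0251 and 0.0254) and, by r alone, Dclk1 (r = 0.76, rho = 0.76, adjusted permutation p = 0.0361 and 0.0611). With genotype means removed, r with the mast cell genes was 0.78 for Rgs13, 0.42 for Sh2d6, 0.67 for Gnat3 and 0.67 for Dclk1. The mast cell genes summed to 27.4 to 57.2 normalized TPM in Spry2IEKO and 18.6 to 28.2 in Spry2FF mice, and 2 defining genes, Tpsab1 and Fcer1a, were at 0 in all 12 mice. The 8 enteroendocrine genes, at 343 to 724 in Spry2IEKO and 348 to 581 in Spry2FF mice, followed Rgs13 (r = 0.77, rho = 0.81, adjusted permutation p = 0.0342 and 0.0286) and Gnat3 (r = 0.75, rho = 0.79, adjusted permutation p = 0.0391 and 0.0411). The 5 germinal centre B cell genes summed to at most 14.4 in Spry2IEKO and 4.84 in Spry2FF mice, the 9 megakaryocyte and red cell genes to 41.2 to 293 and 34.0 to 239, and the 8 enteric neuron genes to 38.0 to 77.0 and 51.4 to 81.3. The part of the mast cell, enteroendocrine, germinal centre and megakaryocyte lists in the results was not tested, and with the neuron genes as a covariate (also chosen after seeing the data) 4 of the 9 tuft cell genes, Avil, Rgs13, Sh2d6 and Trpm5, had an unadjusted p under 0.05, against 2.93% of all genes on the higher side. Avil, at 0.54, was among them here and Gnat3, at 0.69, no longer was.

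Genes that mark the epithelium as a whole had lower values in Spry2IEKO mice. The sum of the 8 epithelium genes was 5251 to 6599 normalized TPM against 6368 to 7712, and 5 of the 8 were lower at an unadjusted p under 0.05. At that threshold 3.17% of all genes tested were lower. Relative to Cdh1 of the same mouse, which shifts the median of all genes up by about 0.22 on the log2 scale, 7 of the 9 tuft cell genes had an unadjusted p under 0.05, against 24.6% of all genes on the higher side. Relative to the mean of the 8 epithelium genes, which shifts that median by 0.15, 7 did as well, against 15%, and relative to Hprt 4 did, against 1.16%. No gene of the 9 passed the adjusted threshold under any of these scalings.

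Other genes of tuft cells, 79 in all in 4 lists, were examined beside the 10. Of these, 78 were in the table, 61 were tested, 0 passed an adjusted p of 0.05, and at an unadjusted p under 0.05, 7 were higher and 1 lower in Spry2IEKO mice, against 3.0% and 3.17% of all genes. The median log2 difference of the 61 was 0.18, with 45 above 0.

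Among 41 other tuft cell genes, 5 were higher, led by Il17rb, Fam221a, Sh2d7 and Tspan6. Il17rb, the receptor of interleukin-25, had no overlap, from 2.37 to 4.34 normalized TPM in Spry2IEKO and from 1.60 to 2.31 in Spry2FF mice (log2 difference 0.52, standard error 0.153, unadjusted p = 0.00494, adjusted p = 0.628 by limma). Sh2d7, an SH2 adaptor related to Sh2d6, had 2.07 ± 0.815 (SD, n = 6) in Spry2IEKO against 0.738 ± 0.451 (SD, n = 6) in Spry2FF mice, and its log2 difference was 1.05 (standard error 0.33, unadjusted p = 0.00728, adjusted p = 0.674 by limma). For Fam221a the log2 difference was 0.87 (unadjusted p = 0.0053, adjusted p = 0.642 by limma), and for Tspan6, a tetraspanin, 0.50 (unadjusted p = 0.0225, adjusted p = 0.753 by limma). The remaining gene of the 5, Bmx, a tyrosine kinase, was named after its values were seen (0.58, unadjusted p = 0.0271, adjusted p = 0.753 by limma).

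Among the 20 other genes of the taste cascade, 7 were tested and 1 was higher and 1 lower. Itpr3, the inositol trisphosphate receptor that releases calcium downstream of Plcb2, was lower, at 23.6 ± 3.56 (SD, n = 6) against 28.3 ± 2.22 (SD, n = 6) normalized TPM (log2 difference -0.27, unadjusted p = 0.0153, adjusted p = 0.694 by limma). Ffar2, a receptor of short chain fatty acids, was 3.12 ± 1.54 (SD, n = 6) against 1.80 ± 0.772 (SD, n = 6) (0.63, unadjusted p = 0.05, adjusted p = 0.809 by limma). Gnb1 (-0.13) and Itpr2 (-0.21) did not pass. Sucnr1, the succinate receptor of tuft cells, was listed at 0 in 5 mice and reached 0.802.

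Among the 9 products and lipid enzymes, 7 were tested and 0 had an unadjusted p under 0.05. Alox5, Alox5ap and Ltc4s, which together make cysteinyl leukotrienes, had log2 differences of 0.35, 0.42 and 0.28, and Ptgs1, a cyclooxygenase, -0.21. Il25 itself was listed at 0 in 6 mice, 3 of each genotype, and reached 0.245. Of 9 further transcription factors 8 were in the table and 6 were tested, with 1 higher. This was Atoh1, which directs secretory cells, at 38.0 ± 5.10 (SD, n = 6) against 29.2 ± 6.07 (SD, n = 6) normalized TPM (0.39, unadjusted p = 0.0132, adjusted p = 0.693 by limma). Spib (0.87), Ascl2 (-0.31) and 1810046K07Rik (0.22) did not pass.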

How the data were processed

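RNA of the full-thickness distal colon of 12 mice was sequenced with a stranded mRNA kit. The labels call the reads paired-end and the study's methods single-ended. Per the labels, the authors used CASAVA, kallisto and sleuth with the mouse build mm10 (versions of CASAVA and sleuth are not given in the sources used here). The deposited signal is TPM per transcript that the authors scaled once more between mice. Test columns of the authors (p and q values) were not used. Of 113974 entries, 781 repeats were dropped, 28 genes whose names had become dates were renamed, and the other 113193 transcripts were summed per gene.

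Genotype, litter and their interaction were tested two-sided in R 4.3.3 by the linear models of limma 3.58.1, moderated by eBayes with a trend on the mean, on log2(normalized TPM + 0.5), over genes with a mean of 0.5 or more, with Benjamini-Hochberg adjustment over all genes tested. This understates the change of low genes. Single genes were compared by exact permutation tests (SciPy 1.17.1, Python 3.11.15), and pairs of genes by permuted correlations. The fit was checked on simulated data. Positions are those of GENCODE M21 (GRCm38).

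The genes named are the 10 tuft cell genes, the 4 related genes of lowest p in each list together with Il25, Sucnr1, Ltc4s and Alox5ap, and the 10 genes most like the members. Outside this rule, Bmx, Trpm4, Tas2r126 and Tas2r143 were named after their values were seen. The members and all lists were chosen with earlier results of these data known. Alternatives were the pseudocount, the filter, the scaling, litter and sex as covariates, females alone, each litter alone and each mouse left out. A TATA motif was also searched in the promoter windows and is not reported, since its strands were not treated alike.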

Additional observations from a re-analysis of the deposited data

Results flagged for a closer look

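Of 56 groups of 6 mice examined, over the tuft cell genes and the related genes named, 7 held a mouse whose gap to the nearest of the others passed Dixon's 95% limit, where about 1 in 20 (2.8 groups) would by chance. Spry2IEKO replicate 12 had 18.4 normalized TPM of Sh2d6, above 6.01 to 8.26 in the others of its genotype, and 10.4 of Ascl2, a transcription factor of stem cells, above 3.57 to 5.41. Spry2IEKO replicate 8, the male, was the lowest for Atoh1, at 27.9 below 38.8 to 42.1, and for Sh2d7, at 0.476 below 2.05 to 2.74. Spry2IEKO replicate 4 had 5.2 of Ltc4s, above 1.76 to 2.80. Among Spry2FF mice, replicate 10 had 0.688 of Gfi1b, above 0 to 0.222, and replicate 3 had 2.29 of Alox5, above 0.624 to 1.21.

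The genotype difference of Sh2d6 was larger in litter B than in litter A by 1.11 on the log2 scale (1.81 and 0.70, unadjusted p = 0.034, adjusted p = 0.998 by limma). The highest mouse, replicate 12, belongs to litter B.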

How the results depend on the processing

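None of the 9 tuft cell genes tested passed an adjusted p of 0.05 for genotype under the 27 alternatives or for litter under 24, and 8 or 9 of them were higher in Spry2IEKO mice throughout. The number of all genes called, 5, was 3 with a mean of at least 0.1, 1 without a filter, 1 with sex as a covariate, 2 in females, 2 after quantile normalization, 9 relative to Cdh1, 1 relative to Hprt, 12 relative to the epithelium genes, 2 in litter A, 1 in litter B, 1 without Spry2IEKO replicates 4 and 5 (whose fat genes stand apart), and 1 to 11 with each mouse left out. The 4 tuft cell genes with an unadjusted p under 0.05 became 7 relative to Cdh1 or the epithelium genes, 2 in litter A and 3 to 7 with each mouse left out, with 7 without Spry2IEKO replicate 8. By the exact permutation test, the 4 became 1 in females, 7 relative to Cdh1 or the epithelium genes and 2 to 7 with each mouse left out (2 without Spry2FF replicate 9 or 13, 7 without Spry2IEKO replicate 8). The 1 gene without overlap became 3 in females, 5 in litter A, 2 in litter B and 1 to 2 with each mouse left out. The 8 related genes became 21 relative to Cdh1, 5 relative to Hprt, 13 relative to the epithelium genes, 3 in litter B, 4 without Spry2IEKO replicates 4 and 5, and 5 to 14 with each mouse left out (5 without Spry2IEKO replicate 4, 14 without replicate 8).

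For litter, 0 genes became 1 when each mouse was scaled to the same total or to Hprt, and 0 to 1 with each mouse left out (1 without Spry2IEKO replicate 12 or Spry2FF replicate 3). For the difference between litters, 1 gene became 2 without a filter, 2 with sex as a covariate, 0 in females, 0 without Spry2IEKO replicates 4 and 5, and 0 to 1 with each mouse left out (0 without Spry2IEKO replicate 4, 5 or 12 or Spry2FF replicate 3, 7 or 9). The 15 pairs that passed became 2 in females, 0 in either litter, 9 without Spry2IEKO replicates 4 and 5, 4 with genotype means taken out, and 4 to 16 with each mouse left out (4 without Spry2FF replicate 9). The difference of Gng13, -0.09, turned to 0.048 with a pseudocount of 0.1, 0.13 relative to Cdh1, 0.065 relative to the epithelium genes, 0.16 in litter A and 0.21 with the enteric neuron genes as a covariate, and ran from -0.31 to 0.13 with each mouse left out (above 0 without Spry2IEKO replicate 11 or 12 or Spry2FF replicate 7 or 10). The neuron and B cell covariates were chosen after seeing the data and run for single genes. Fewer mice enter the fits of females, single litters and mice left out, and for the other changes the cause was not tested. Mice could not be paired one to one because the genotypes share no replicate numbers. Litter was used instead, as a covariate and in permutation within litters. Exact tests of 3 mice against 3 cannot go below p = 0.1 and were not counted. Within a litter, the exact test of correlation cannot bring a single pair under the adjusted threshold, so its counts of 0 decide nothing. The depth of each mouse is not in the files, so its limits on genes near 0 such as Gfi1b and Gng13 could not be given.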

Other observations

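Of the related tuft cell genes, Sh2d7 (r = 0.89) and Bmx (0.88) followed the mean z score of the 10 genes most closely over the 12 mice, and Itpr3 (-0.72) and the calcium-activated channel Trpm4 (-0.52) lay at the other end. Of the bitter taste receptors, Tas2r126 and Tas2r143 were listed at 0 in all 12 mice.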
